A study of Mus musculus with 6 samples.

Results

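Immediate early genes were followed in the mouse ileum through 10 genes, Fos, Fosb, Jun, Junb, Atf3, Egr1, Ier2, Ier3, Dusp1 and Zfp36. They were chosen by symbol, as a gauge of acute stress or tissue handling, with earlier results of these data known. Every probe set that the platform annotation maps to one of these symbols was taken, which gave 11 probe sets, 2 of them for Jun, among 22626 probe sets other than controls, which the annotation ties to 12393 genes. Ileum RNA from male C57BL/6:129Sv wild type mice, 8 to 10 months old, was hybridised to 6 single-colour Affymetrix arrays in 3 groups of 2. BDL_GW4064 mice had their common bile duct tied and received by gavage 100 mg/kg/day of GW4064, a synthetic ligand that activates the nuclear receptor FXR, from 2 days before surgery until 5 days after it. BDL_Vehicle mice had the same ligation with the Tween80 and methylcellulose vehicle, and Sham_Vehicle mice had the incision and handling of the duct without ligation, with vehicle. Every GW4064 array thus also carries the ligation, and all 3 groups carry the laparotomy and the gavage. The labels leave unsaid if a group's 2 arrays stand for separate or pooled animals, and how soon after death the ileum was taken, so the p-values reflect only how far these arrays differ, which may be technical.

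Immediate early genes are transcribed within minutes of a stimulus, before new protein is made, because the factors that switch them on are already present and are activated by phosphorylation. Growth factors, cytokines, stretch and injury reach them through MAP kinases, which act on serum response factor and its partners and on CREB. Fos, Fosb, Jun, Junb and Atf3 encode basic leucine zipper proteins that pair into AP-1 dimers and related complexes, and Egr1 encodes a zinc finger factor. Dusp1 and Zfp36 close the loop, since the first dephosphorylates MAP kinases and the second speeds the decay of mRNAs with AU-rich elements. In whole tissue these transcripts also climb while the tissue is being removed, which is why they are read as a sign of handling.

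RefSeq promoter windows (build GRCm38.p6, 250 bases before to 50 after the annotated start) matched 8 of the 10 genes, with Egr1 and Ier2 unmatched. Promoter stretches of 3 genes are shown, the 200 bases before the start, because Fos differed most between the groups while Dusp1 and Zfp36 hold motifs of the known signal routes and overlapped between the groups. In Dusp1 the capitals mark the cAMP response element TGACGTCA, bound by CREB. In Zfp36 they mark the EGR site GCGGGGGCG and, nearer the start, a CArG box, the core of the serum response element. The Fos window holds none of these, and bases more than 250 before the Fos start were not searched. The Fos capitals mark 2 copies of the half-site TGACG and the TATA box TATAAA, both motifs added after the first search. Fos lies on the plus strand (chr12:85473690-85473889), Dusp1 on the minus strand (chr17:26508473-26508672) and Zfp36 on the minus strand (chr7:28379229-28379428).
Fos: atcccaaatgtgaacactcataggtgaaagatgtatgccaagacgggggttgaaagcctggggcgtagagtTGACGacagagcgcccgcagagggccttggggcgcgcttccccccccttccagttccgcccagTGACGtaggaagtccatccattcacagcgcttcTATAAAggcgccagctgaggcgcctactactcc
Dusp1: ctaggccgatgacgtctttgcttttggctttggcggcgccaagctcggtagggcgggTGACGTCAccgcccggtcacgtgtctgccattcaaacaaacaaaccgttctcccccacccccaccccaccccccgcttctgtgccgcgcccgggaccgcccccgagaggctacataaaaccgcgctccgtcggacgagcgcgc
Zfp36: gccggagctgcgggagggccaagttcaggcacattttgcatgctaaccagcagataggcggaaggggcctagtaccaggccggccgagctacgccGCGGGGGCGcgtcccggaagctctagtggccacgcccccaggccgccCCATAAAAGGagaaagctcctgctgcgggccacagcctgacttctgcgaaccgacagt

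Both strands of the windows were searched. TGACGTCA was found in 1 of the 8 genes (Dusp1, positions -143 to -136) and in 1.79% of all 32851 windows. GCGGGGGCG was found in Fosb (-50 to -42) and Zfp36 (-105 to -97) and in 2.91% of all windows. The CArG box was found in Zfp36 (-58 to -49) and in 1.63% of all windows, and the AP-1 site TGACTCA in 0 of the 8 and in 5.20%. The half-site TGACG, which lies inside TGACGTCA, was found in Fos, Fosb, Junb, Atf3 and Dusp1 and in 20.8% of all windows, and TATAAA in Fos (-33 to -28) and Junb (1 to 6) and in 13.6%. Jun and Ier3 held none of these letters in this window. These are matches of letters, and sites further from the start lie outside the windows.

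**Figure D1:**
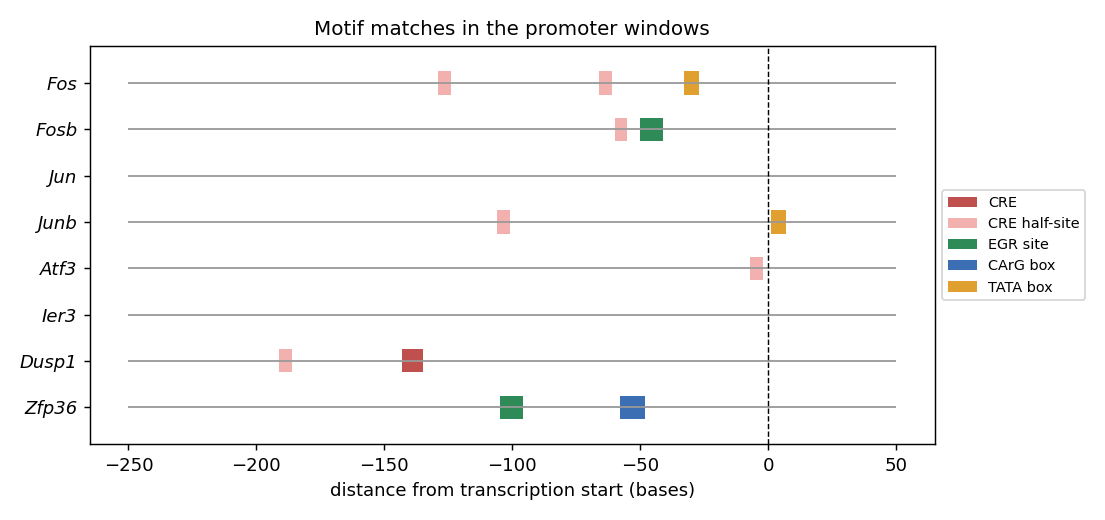
Motif matches in the promoter windows of the 8 matched genes, drawn by distance in bases from the annotated transcription start (dashed line). The CArG box appears in Zfp36 alone of the 8, the full cAMP response element in Dusp1 alone, and the EGR site in Fosb and Zfp36.

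Every array had the same trimmed mean signal, 200.1, and arrays have no count depth, so 2 arrays per group set the precision. The tissue label was checked against markers. Enterocyte and epithelial markers, 8 of 10 on the array, summed to between 29219.2 and 32451.4 in every array. The 5 ileal markers summed to 13571.2 and 12711 in BDL_GW4064, 7899.1 and 9353.3 in BDL_Vehicle, and 13091.5 and 13964.9 in Sham_Vehicle. Of the 5, 2 passed the limma test as lower in BDL_Vehicle over Sham_Vehicle and 2 as higher in BDL_GW4064 over BDL_Vehicle. The ileal sum thus differed with the groups and does not reflect the tissue alone. In 5 of the 10 marker lists, 0 markers lay below a signal of 37.1 in all arrays. In the other lists those that did were S100a8, S100a9, Lep, Cd4, Elavl4, Ret, S100b and 4 exocrine pancreas markers. BDL_GW4064 replicate 2 stood apart in its smooth muscle markers, whose 10 signals summed to 12926.9 there and to between 1635.2 and 2173.7 in the other 5 arrays. Mesenteric adipose markers, 5 of 7 on the array, summed to 1045.4 there and to between 203.6 and 522.2 in the other 5. Endothelial markers summed to 579.6 and 538.2 in BDL_GW4064 and to between 269.6 and 375.8 in the other groups. The actin probe sets for the 3' and 5' ends gave a ratio of 1.73 in Sham_Vehicle replicate 2, and of 1.09 to 1.22 in the other arrays. The control for the 5' end of 18S rRNA split the arrays into 2 sets, a low set at 8.6 to 13.3 (the BDL_GW4064 pair with BDL_Vehicle replicate 2) and a high set at 67.3 to 88.7 (BDL_Vehicle replicate 1 with the Sham_Vehicle pair). BDL_Vehicle alone spans both sets. Allowing for the array set therefore compares each other group only with the BDL_Vehicle array of its own set. BDL_GW4064 over Sham_Vehicle then rests on the gap between the 2 BDL_Vehicle arrays as well. In whole tissue, fewer cells of a type and less RNA per cell cannot be told apart.

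Of the 11 probe sets, 10 passed the filter on low signal that left 13575 probe sets for testing. In each of the 3 comparisons 0 of the 10 passed the limma test at an adjusted p of 0.05, while over all tested probe sets 0.0295% passed for BDL_Vehicle over Sham_Vehicle, 0.0516% for BDL_GW4064 over BDL_Vehicle and 0.0368% for BDL_GW4064 over Sham_Vehicle. At an unadjusted p under 0.05 there were 2, 2 and 1 of the 10 in that order of comparisons, against 6.37%, 7.48% and 16% of all tested probe sets. Fos, Egr1 and Atf3 had their highest signals in the 2 BDL_Vehicle arrays, Ier2 and Ier3 were lowest in the 2 Sham_Vehicle arrays, and Jun, Junb, Dusp1 and Zfp36 overlapped between all groups. The spread over the 6 arrays was widest for Fos, whose log2 signals had an SD of 0.50, above that of 93.0% of tested probe sets. It was narrowest for Ier2, with an SD of 0.13, above that of 19.4%.

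**Figure D2:**
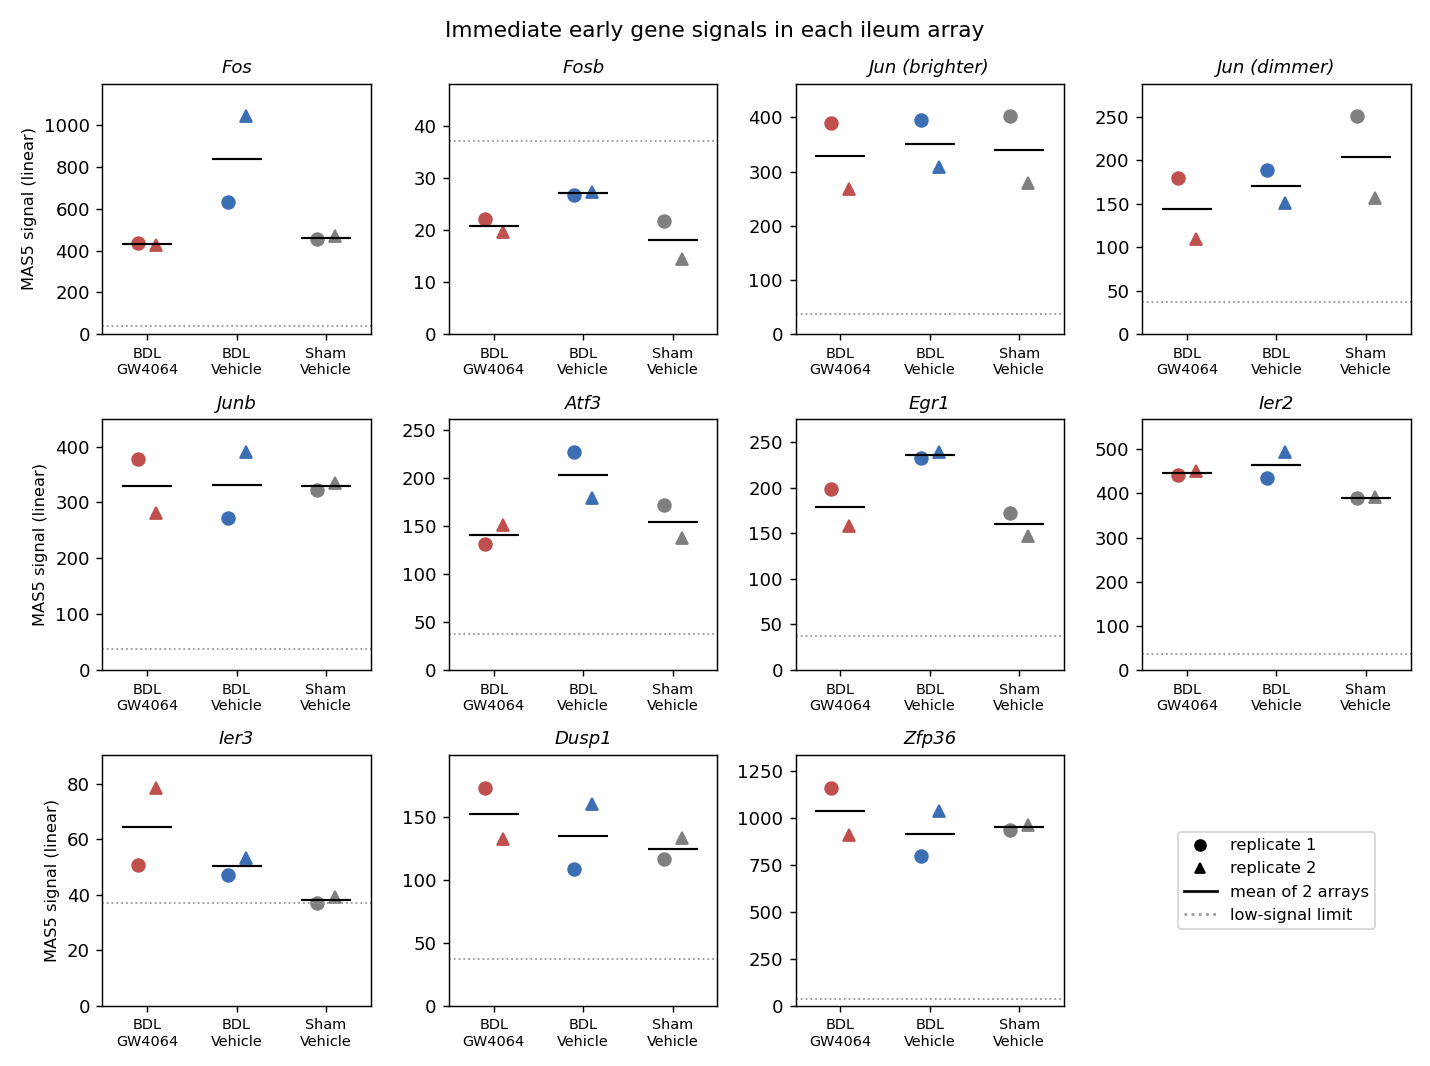
MAS5 signal (linear scale from 0) of the 11 probe sets in each array, with circles for replicate 1, triangles for replicate 2 and a line at the mean of the 2 arrays. The dotted line is the low-signal limit of 37.1. Fos reached 632.2 and 1042.7 in BDL_Vehicle and lay between 428.0 and 470.9 in the other 4 arrays, while Zfp36 and Junb overlapped between groups.

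Fos, the partner of Jun in the classical AP-1 dimer, had signals of 436.0 and 428.0 in BDL_GW4064, 632.2 and 1042.7 in BDL_Vehicle, and 453.4 and 470.9 in Sham_Vehicle. Both BDL_Vehicle arrays lay above the other 4, which sat within a narrow band, and the 2 BDL_Vehicle arrays were far from each other. Their gap of 0.72 on the log2 scale was wider than that of 94.1% of tested probe sets. BDL_Vehicle averaged 837.5 ± 290 and Sham_Vehicle 462.2 ± 12.4 (SD, n = 2 arrays each). On the log2(signal + 4) scale, which understates the change of low signals and is used for all fold changes here, this was 0.81 ± 0.22 (SE), or 1.75-fold higher, with a 95% interval of 0.30 to 1.32 and a limma adjusted p of 0.709. BDL_GW4064 averaged 432 ± 5.66 (SD, n = 2 arrays), and its log2 fold change over BDL_Vehicle was -0.90 ± 0.22 (SE), or 1.87-fold lower, with an interval of -1.42 to -0.39 and a limma adjusted p of 0.346. These comparisons share the BDL_Vehicle arrays, so a high BDL_Vehicle value enters both. BDL_GW4064 against Sham_Vehicle gave -0.10 ± 0.22 (SE), with arrays that did not overlap and an interval of -0.61 to 0.42 (limma adjusted p = 0.861). Allowing for the array set, this last value was -0.81, with a limma adjusted p of 1.00, so the place of BDL_GW4064 relative to Sham_Vehicle depended on that setting.

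The size of the Fos difference depended on BDL_Vehicle replicate 2, and its direction was the same without it. Without that array the log2 fold change over Sham_Vehicle was 0.45, and without BDL_Vehicle replicate 1 it was 1.17, with limma adjusted p of 1.00 and 0.266. Without Sham_Vehicle replicate 2, the array with the actin ratio of 1.73, it was 0.84. For BDL_GW4064 over BDL_Vehicle the value was -0.55 without BDL_Vehicle replicate 2 and -1.26 without BDL_Vehicle replicate 1 (limma adjusted p = 0.302 and 0.180). A model that included the array set gave the same sizes, 0.45 for the ligation and -1.26 for GW4064, because each then rests on the BDL_Vehicle array of its own set. The 2 BDL_GW4064 arrays, with Fos at 436.0 and 428.0, had smooth muscle marker sums of 1989.5 and 12926.9, and leaving out the second gave a GW4064 value of -0.89. Fibroblast and matrix markers, all 10 on the array, summed to 3655.9 and 4546.3 in BDL_GW4064, 1267.8 and 1603.1 in BDL_Vehicle, and 1273.1 and 2032.8 in Sham_Vehicle. The part of cell make-up in the Fos difference was not tested.

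Fosb, a second Fos family member, was dim in every array and was left out of the tests. Its signals were 22.2 and 19.6 in BDL_GW4064, 26.8 and 27.4 in BDL_Vehicle, and 21.8 and 14.4 in Sham_Vehicle. The 6 values lay below 37.1, so no fold is read from them here, although both BDL_Vehicle arrays again read above the other 4. Its promoter window holds the half-site TGACG, as do those of Fos, Junb, Atf3 and Dusp1 and 20.8% of all windows. It also holds the EGR site, as does that of Zfp36, and Junb, Dusp1 and Zfp36 overlapped between all groups.

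Jun, the central AP-1 subunit, was measured by 2 probe sets, a brighter and a dimmer one, that correlated at 0.86 over the 6 arrays. On the brighter one the signals were 389.9 and 267.9 in BDL_GW4064, 394.7 and 308.9 in BDL_Vehicle, and 402.2 and 279.4 in Sham_Vehicle. On the dimmer one they were 179.5 and 109.1 in BDL_GW4064, 189.2 and 151.3 in BDL_Vehicle, and 250.8 and 156.9 in Sham_Vehicle. On both probe sets replicate 1 read above replicate 2 in each of the 3 groups, by 0.32 to 0.70 on the log2 scale, and the groups overlapped. The log2 fold changes on the brighter one were 0.06 ± 0.25 (SE) for BDL_Vehicle over Sham_Vehicle, -0.11 ± 0.25 for BDL_GW4064 over BDL_Vehicle and -0.05 ± 0.25 for BDL_GW4064 over Sham_Vehicle, with limma adjusted p of 0.969, 0.970 and 0.940. For BDL_GW4064 over Sham_Vehicle the probe sets differed in size, since the dimmer one gave -0.49 ± 0.30 (SE, limma adjusted p = 0.451). That value depended on single arrays, at -0.16 without Sham_Vehicle replicate 1, -0.82 without Sham_Vehicle replicate 2, -0.14 without BDL_GW4064 replicate 2 and -0.84 without BDL_GW4064 replicate 1.

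Junb, the Jun relative that restrains Jun on many promoters, had signals of 377.2 and 280.4 in BDL_GW4064, 271.4 and 390.0 in BDL_Vehicle, and 322.3 and 335.4 in Sham_Vehicle. The group means of 328.8 ± 68.4 in BDL_GW4064, 330.7 ± 83.9 in BDL_Vehicle and 328.9 ± 9.26 in Sham_Vehicle (SD, n = 2 arrays each) lay far closer together than the arrays of either ligated group. The interval of its log2 fold change ran from -0.52 to 0.49 for BDL_Vehicle over Sham_Vehicle and from -0.50 to 0.50 for BDL_GW4064 over BDL_Vehicle, and both intervals include 0.

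Atf3, a stress-induced member of the ATF family that can pair with Jun proteins, had signals of 131.0 and 151.0 in BDL_GW4064, 226.8 and 178.7 in BDL_Vehicle, and 171.5 and 137.6 in Sham_Vehicle. As for Fos, both BDL_Vehicle arrays were above the other 4, but here replicate 1 was the higher of the pair. BDL_Vehicle averaged 202.8 ± 34.0 against 154.6 ± 24.0 in Sham_Vehicle (SD, n = 2 arrays each), a log2 fold change of 0.38 ± 0.20 (SE) with a limma adjusted p of 0.751. BDL_GW4064 averaged 141 ± 14.1 (SD, n = 2 arrays), with a log2 fold change over BDL_Vehicle of -0.51 ± 0.20 (SE), an interval of -0.96 to -0.05 and a limma adjusted p of 0.598. The ligation value was 0.55 without BDL_Vehicle replicate 2, 0.21 without BDL_Vehicle replicate 1 and 0.23 without Sham_Vehicle replicate 2. The GW4064 value was -0.34 without BDL_Vehicle replicate 1.

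Egr1, the zinc finger factor, had signals of 199.1 and 157.6 in BDL_GW4064, 233.1 and 239.1 in BDL_Vehicle, and 172.5 and 147.3 in Sham_Vehicle. The BDL_Vehicle arrays were close to each other and stood above the other 4, among which BDL_GW4064 and Sham_Vehicle overlapped. BDL_Vehicle averaged 236.1 ± 4.24 and Sham_Vehicle 159.9 ± 17.8 (SD, n = 2 arrays each), a log2 fold change of 0.55 ± 0.18 (SE), or 1.47-fold higher, with an interval of 0.14 to 0.97 and a limma adjusted p of 0.751. Allowing for the array set, the value was 0.54, and without Sham_Vehicle replicate 2 it was 0.44. BDL_GW4064 averaged 178.4 ± 29.3 (SD, n = 2 arrays), and its log2 fold change over BDL_Vehicle was -0.41 ± 0.18 (SE, limma adjusted p = 0.677), which became -0.24 without BDL_GW4064 replicate 2.

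Ier2, a nuclear protein of the early growth response, had signals of 441.8 and 450.7 in BDL_GW4064, 434.5 and 493.4 in BDL_Vehicle, and 389.3 and 391.6 in Sham_Vehicle. All 4 ligated arrays read above both Sham_Vehicle arrays, by a small margin, and the 2 ligated groups overlapped. The log2 fold change over Sham_Vehicle was 0.19 ± 0.14 (SE) for BDL_GW4064 and 0.24 ± 0.14 for BDL_Vehicle, with limma adjusted p of 0.519 and 0.753. Allowing for the array set, the BDL_GW4064 value was 0.01 and the BDL_Vehicle value 0.15. Without Sham_Vehicle replicate 2 they were 0.20 and 0.25.

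Ier3, a stress-inducible regulator of apoptosis, had signals of 50.6 and 78.5 in BDL_GW4064, 47.2 and 53.2 in BDL_Vehicle, and 36.9 and 39.1 in Sham_Vehicle. The ligated arrays were again all above the Sham_Vehicle arrays, 1 of which lay below the low-signal limit of 37.1. BDL_GW4064 averaged 64.6 ± 19.7 and Sham_Vehicle 38 ± 1.56 (SD, n = 2 arrays each), a log2 fold change of 0.68 ± 0.27 (SE), or 1.60-fold higher, with an interval of 0.04 to 1.31 and a limma adjusted p of 0.291. BDL_Vehicle averaged 50.2 ± 4.24 (SD, n = 2 arrays), with a log2 fold change over Sham_Vehicle of 0.37 ± 0.27 (SE, limma adjusted p = 0.818). The highest value came from BDL_GW4064 replicate 2, the array whose smooth muscle markers summed to 12926.9 and whose mesenteric adipose markers summed to 1045.4. Without that array BDL_GW4064 over Sham_Vehicle was 0.38 (limma adjusted p = 0.647) and BDL_GW4064 over BDL_Vehicle was 0.01, against 0.31 with it. Without BDL_GW4064 replicate 1 these values were 0.97 and 0.61, and the part of cell make-up in them was not tested. Without Sham_Vehicle replicate 2 the values over Sham_Vehicle were 0.71 for BDL_GW4064 and 0.40 for BDL_Vehicle.

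Dusp1, the MAP kinase phosphatase, had signals of 173.5 and 132.5 in BDL_GW4064, 108.8 and 161.1 in BDL_Vehicle, and 116.7 and 133.3 in Sham_Vehicle. Zfp36, the RNA decay factor also called tristetraprolin, had signals of 1158.3 and 909.2 in BDL_GW4064, 798.3 and 1033.8 in BDL_Vehicle, and 936.6 and 960.7 in Sham_Vehicle. In both genes the arrays of a ligated group differed from each other more than the group means did, and BDL_GW4064 replicate 1 was the highest array and BDL_Vehicle replicate 1 the lowest. The log2 fold change of Dusp1 was 0.08 ± 0.24 (SE) for BDL_Vehicle over Sham_Vehicle and 0.19 ± 0.24 for BDL_GW4064 over BDL_Vehicle, with limma adjusted p of 0.955 and 0.938. That of Zfp36 was -0.06 ± 0.17 (SE) and 0.18 ± 0.17 in the same comparisons, with limma adjusted p of 0.954 and 0.908. The Zfp36 interval for the ligation, -0.46 to 0.33, was the narrower of the pair. Allowing for the array set, which for BDL_GW4064 over BDL_Vehicle leaves BDL_Vehicle replicate 2 alone as the reference, turned the direction of both genes. The values were then -0.09 for Dusp1 and -0.01 for Zfp36.

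**Figure D3:**
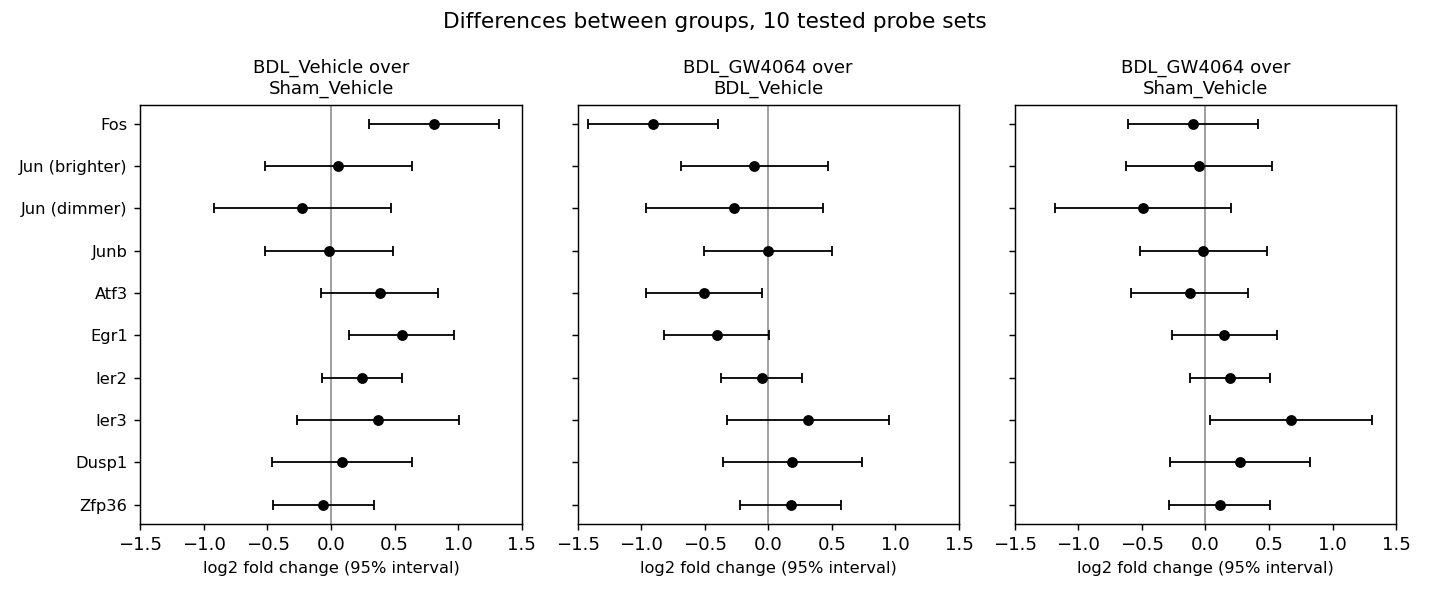
Log2 fold change with its 95% interval (limma, 6 arrays) for the 10 tested probe sets in the 3 comparisons, which share arrays with each other. The Fos interval lies above 0 for BDL_Vehicle over Sham_Vehicle (0.30 to 1.32) and below 0 for BDL_GW4064 over BDL_Vehicle (-1.42 to -0.39), before adjustment over 13575 probe sets.

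Counted together, 5 of the 10 tested probe sets had BDL_Vehicle arrays that lay above both Sham_Vehicle arrays and 0 had them below, beside 18.2% and 18.7% of all tested probe sets. They were Fos, Egr1, Atf3, Ier2 and Ier3. For BDL_GW4064 over BDL_Vehicle, 0 lay above and 3 below (Fos, Egr1 and Atf3), beside 17.4% and 18.1%. For BDL_GW4064 over Sham_Vehicle, 2 lay above (Ier2 and Ier3) and 1 below (Fos), beside 23.8% and 26.3%. Both BDL_Vehicle arrays above the other 4 was the pattern of 3 of the 10, beside 4.26% of all tested probe sets, and all 4 ligated arrays above both Sham_Vehicle arrays that of 2, beside 10.8%. The genes were chosen with earlier results of these data known, so these counts describe them and do not test for an excess. With 1 probe set a gene and Fosb included, the median log2 fold change of the 10 genes was 0.30 for BDL_Vehicle over Sham_Vehicle, -0.08 for BDL_GW4064 over BDL_Vehicle and 0.13 for BDL_GW4064 over Sham_Vehicle, beside medians of -0.01, -0.01 and 0.00 over all tested probe sets. Over the 9 tested genes, without the dim Fosb, the medians were 0.24, -0.05 and 0.11. With Fosb, the genes were higher in 8 of 10, 3 of 10 and 6 of 10 cases in that order. Without Fosb, 7, 3 and 5 of the 9 were higher, beside 48.3%, 47.9% and 50.2% of all tested probe sets. The GW4064 median was -0.29 without BDL_GW4064 replicate 1 and -0.20 without BDL_Vehicle replicate 1, and that of BDL_GW4064 over Sham_Vehicle was -0.02 without BDL_GW4064 replicate 1, 0.03 without Sham_Vehicle replicate 2 and 0.24 without BDL_GW4064 replicate 2.

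The 10 genes did not move as 1 block across the arrays. Of their 45 pairs, 32 correlated positively over the 6 arrays, with a median Pearson r of 0.19 and a range from -0.73 to 0.93. Junb, Dusp1 and Zfp36 kept closest company, at 0.93 for Dusp1 with Zfp36, 0.89 for Junb with Zfp36 and 0.84 for Junb with Dusp1. In these 3 genes BDL_GW4064 replicate 1 and BDL_Vehicle replicate 2 were the 2 highest arrays and BDL_Vehicle replicate 1 the lowest. Egr1 correlated at 0.93 with the dim Fosb and at 0.76 with Fos, and Atf3 at -0.73 with Zfp36. Set against the mean of the other 9 genes, Egr1 (0.88), Ier2 (0.83), Fosb (0.82) and Fos (0.64) tracked it most closely, and Ier3 (0.01) and Jun (0.08) least. Fosb, whose 6 signals all lay below 37.1, entered the pairs and the means, which were not repeated without it, so its own correlations are not read here. These correlations describe 6 arrays that share groups and scaling, and were not tested.

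**Figure D4:**
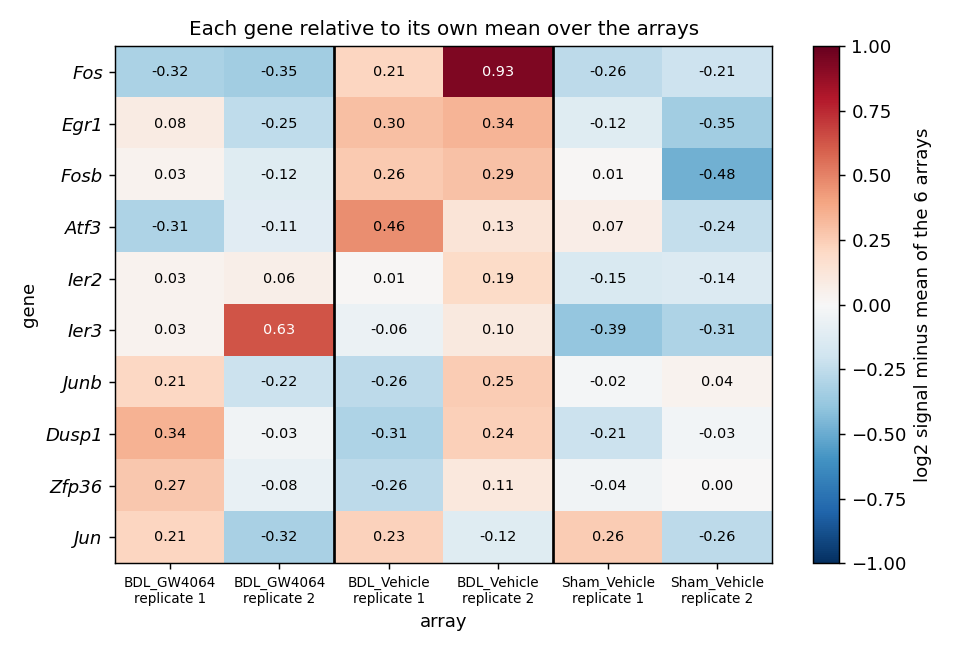
Log2 signal of each gene (1 probe set a gene) minus its own mean over the 6 arrays, with arrays in columns by group. Fos stands at 0.93 in BDL_Vehicle replicate 2, Ier3 at 0.63 in BDL_GW4064 replicate 2; Junb, Dusp1 and Zfp36 all lie above their means in BDL_GW4064 replicate 1 and BDL_Vehicle replicate 2.

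Averaged over the 10 genes, the centred log2 signal was 0.06 and -0.08 in BDL_GW4064, 0.06 and 0.25 in BDL_Vehicle, and -0.09 and -0.20 in Sham_Vehicle. BDL_Vehicle replicate 2 was the highest array, with 9 of the 10 genes above their own mean, and Sham_Vehicle replicate 2, where the actin ratio was 1.73, the lowest, with 2 of 10. The median of all tested probe sets stayed between -0.01 and 0.02 in the same arrays. Among 4137 probe sets of other genes that varied at least as much as the median member, the 8 closest to this average had correlations of 0.94 to 1.00 over the 6 arrays. They belonged to Pklr, with 2 probe sets, Cotl1, Rfng, Mpzl2, Smpdl3b, Trim26 and Nf2. Pklr, which encodes the liver and red cell form of pyruvate kinase, had signals of 803.3 and 618.3 in BDL_GW4064, 800.5 and 1238.5 in BDL_Vehicle, and 567.5 and 454.3 in Sham_Vehicle on its closest probe set. The average includes the dim Fosb. These likenesses are the highest among many candidates over few arrays and were not tested.

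Other early response genes were read from a list of 50, of which 47 were on the array and 37 were tested. In each comparison 0 of the 37 passed the limma test, and at an unadjusted p under 0.05 there were 5, 3 and 12 in the order BDL_Vehicle over Sham_Vehicle, BDL_GW4064 over BDL_Vehicle and BDL_GW4064 over Sham_Vehicle. Of all tested probe sets, 6.37%, 7.48% and 16% lay under that value. The median log2 fold changes of the 37 genes were 0.04, -0.12 and 0.06. Of these genes 21, 14 and 21 were higher, beside 48.3%, 47.9% and 50.2% of all tested probe sets. Jund, the Jun relative that is expressed steadily in resting cells, had signals of 1186.2 and 1124.5 in BDL_GW4064, 1482.7 and 1514.9 in BDL_Vehicle, and 1565.9 and 1741.2 in Sham_Vehicle, and its log2 fold change over Sham_Vehicle with GW4064 was -0.51 ± 0.11 (SE, limma adjusted p = 0.176). Klf4, a factor of differentiating epithelium, had 1162.5 and 1146.2 in BDL_GW4064, 1678.2 and 1438.7 in BDL_Vehicle, and 1783.6 and 1887.3 in Sham_Vehicle (log2 fold change of BDL_GW4064 over Sham_Vehicle -0.67 ± 0.12, SE, limma adjusted p = 0.153). For both genes the BDL_GW4064 arrays lay below the other 4.

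The remaining genes named by rule from that list differed in direction, and none of the 5 passed. Dusp6, the phosphatase that acts on ERK, had 687.1 and 462.0 in BDL_GW4064, 321.8 and 349.3 in BDL_Vehicle, and 464.9 and 530.6 in Sham_Vehicle. BDL_Vehicle was thus the lowest group, where it was the highest for Fos, with log2 fold changes of -0.56 ± 0.20 (SE) for BDL_Vehicle over Sham_Vehicle and 0.74 ± 0.20 for BDL_GW4064 over BDL_Vehicle (limma adjusted p = 0.751 and 0.393). Tnfaip3, an inhibitor of NF-kappaB signalling, had 65.8 and 69.7 in BDL_GW4064, 86.5 and 108.7 in BDL_Vehicle, and 64.3 and 55.5 in Sham_Vehicle, with BDL_Vehicle the highest group as for Fos (log2 fold change of BDL_Vehicle over Sham_Vehicle 0.66 ± 0.21, SE, limma adjusted p = 0.751). Gadd45g, a growth arrest gene, had log2 fold changes over Sham_Vehicle of 0.85 ± 0.24 (SE) with GW4064 and 0.65 ± 0.24 in BDL_Vehicle. Per1, a clock gene that also responds to stress hormones, had 1.03 ± 0.25 (SE) and 0.66 ± 0.25 in the same comparisons, with 1 Sham_Vehicle array at 34.8, below the low-signal limit. Gadd45b had 0.38 ± 0.16 (SE) for BDL_GW4064 over BDL_Vehicle, with a limma adjusted p of 0.668.

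Upstream of the 10 genes, 20 of 28 listed kinases and factors were on the array and 15 were tested, and 0 passed in any comparison. At an unadjusted p under 0.05 there were 0, 1 and 1, beside 6.37%, 7.48% and 16% of all tested probe sets. Both times this was Rps6ka3, the ribosomal S6 kinase RSK2, at -0.33 ± 0.14 (SE) for BDL_GW4064 over BDL_Vehicle and -0.36 ± 0.14 for BDL_GW4064 over Sham_Vehicle (limma adjusted p = 0.639 and 0.274). The log2 fold changes of the 15 genes ran between -0.37 and 0.24 in all 3 comparisons. Map2k4, which activates JNK, had -0.37 ± 0.17 (SE) for BDL_GW4064 over BDL_Vehicle, and Map2k3, Mapk14, Mapkapk2, Mapk9, Crebbp, Elk4 and Egfr lay between -0.23 and 0.21 in the comparisons that named them. Of 10 partners and repressors of AP-1, 7 were tested and 0 passed. An unadjusted p under 0.05 was found for 1, 0 and 1, beside the same shares of all tested probe sets. Bach1, a repressor that dimerises with small Maf proteins, had 705.0 and 822.3 in BDL_GW4064, 836.2 and 818.2 in BDL_Vehicle, and 647.7 and 662.3 in Sham_Vehicle (log2 fold change of BDL_Vehicle over Sham_Vehicle 0.34 ± 0.13, SE, limma adjusted p = 0.751). Jdp2, a repressor of AP-1, had a log2 fold change of 0.75 ± 0.26 (SE) for BDL_GW4064 over Sham_Vehicle (limma adjusted p = 0.252). Atf2 (-0.31 ± 0.15), Atf4 (0.26 ± 0.13), Nfe2l2 and Maf did not pass either.

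Downstream, 5 of 14 mRNAs known as targets of Zfp36 were bright enough to test, among them Fos and Ier3 themselves, and 0 passed. There were 1, 2 and 2 at an unadjusted p under 0.05, beside 6.37%, 7.48% and 16% of all tested probe sets. Vegfa, which encodes the angiogenic growth factor, had 214.7 and 213.6 in BDL_GW4064, 137.2 and 127.1 in BDL_Vehicle, and 158.7 and 172.5 in Sham_Vehicle (log2 fold change of BDL_GW4064 over BDL_Vehicle 0.68 ± 0.16, SE, limma adjusted p = 0.308). Myc had 136.2 and 195.8 in BDL_GW4064, 232.9 and 141.0 in BDL_Vehicle, and 122.3 and 117.1 in Sham_Vehicle, and the cytokine gene Il1b had 44.2 and 35.2 in BDL_GW4064, 48.9 and 33.2 in BDL_Vehicle, and 70.5 and 51.7 in Sham_Vehicle. Both ligated groups read above Sham_Vehicle for Myc and below it for Il1b, for which 1 array of each ligated group lay under 37.1, and neither gene passed the limma test.

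Heat shock genes, another measure of acute stress, gave 0 passes among 9 tested. An unadjusted p under 0.05 was found for 1, 1 and 2, beside 6.37%, 7.48% and 16% of all tested probe sets. The medians of the 9 genes were 0.26, 0.01 and 0.27. Of these genes 8, 5 and 8 were higher, beside 48.3%, 47.9% and 50.2% of all tested probe sets. Hsph1, a co-chaperone, had 506.2 and 366.1 in BDL_GW4064, 568.0 and 296.7 in BDL_Vehicle, and 274.8 and 224.4 in Sham_Vehicle. Its higher BDL_Vehicle array was replicate 1, whereas that of Fos was replicate 2. Hspb1, a small heat shock protein abundant in muscle, had 184.3 and 602.3 in BDL_GW4064, the second being the array with high smooth muscle markers, 105.0 and 103.7 in BDL_Vehicle, and 99.4 and 116.5 in Sham_Vehicle. Hspd1, Dnajb1, Bag3, Hspa8, Hspe1 and Hsp90aa1 had log2 fold changes between -0.29 and 0.35 in the comparisons that named them.

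**Figure D5:**
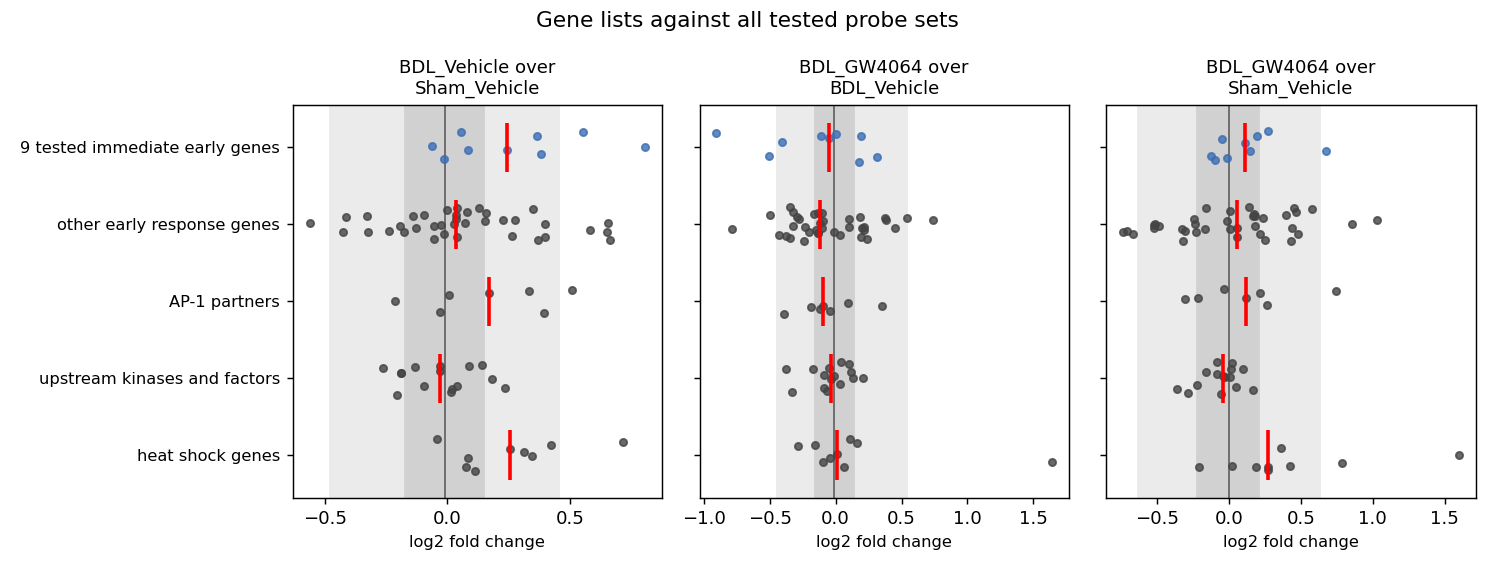
Log2 fold change of the tested genes of 5 lists (points, 1 probe set a gene) with the list median in red, over the middle 50% (dark grey) and 90% (light grey) of all 13575 tested probe sets. In BDL_Vehicle over Sham_Vehicle the median of the 9 tested immediate early genes is 0.24 and that of the 37 other early response genes 0.04.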

How the data were processed

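Ileum RNA was measured in 6 samples. The deposited intensity values were MAS5 signals on a linear scale, per the submitters' processing notes, with a 2% trimmed mean of 200.1 on each array. The MAS5 version, detection calls and genome build are not given in the sources used here. Of 22690 probe sets, 64 controls were left out, and the platform annotation gave 1 gene for 20380 of the rest, several for 691 and no gene for 1555. No probe set annotated to several genes held a member.

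A pseudocount of 4, the 10th percentile of the signals, was added before log2 was taken. The 40% of probe sets with the lowest mean were left out, which set the low-signal limit of 37.1. Groups were compared with limma (version 3.58.1, R 4.3.3), using all 6 arrays, 1 mean per group and a signal-dependent prior of 4.71 degrees of freedom beside 3 residual ones. The Benjamini-Hochberg adjustment covered 13575 probe sets. An exact permutation test of 2 arrays against 2 cannot go below p = 0.333. The scripts were tested on simulated data.

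The members and gene lists were chosen with earlier results of these data known. Every member is named, and from the other lists up to 4 genes with the smallest p in each comparison. Symbols were updated through RefSeq (GRCm38.p6), which also gave the promoters; TATAAA and TGACG were added to the motif search after the data were seen. No probe set coordinates are given. Each gene of a list was represented by its brightest probe set. Settings tried were another normalisation, pseudocount, filter, prior or array selection, a replicate block, the array set as a term and each array left out.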

Additional observations from a re-analysis of the deposited data

How the results depend on the processing

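No member passed the limma test under any of the 17 alternatives, and the smallest adjusted p of a member was 0.175. Fos kept its direction in each comparison under all of them. Several of these settings cannot change a fold change, namely the filter, the prior, the replicate block and leaving out arrays of the uncompared group. The number of probe sets called over the whole array was less stable. For BDL_Vehicle over Sham_Vehicle, where it was 4, it was 2 with no filter, 1 with no signal trend, 2 with the replicate block and 1 to 6 with an array left out. For BDL_GW4064 over BDL_Vehicle, where it was 7, it was 4 with no filter, 2 with no trend, 12 with a robust prior, 4 with the replicate block, 2 with the array set and 2 to 48 with an array left out. For BDL_GW4064 over Sham_Vehicle, where it was 5, it was 3 with median centring, 0 with no trend, the replicate block or the array set, and 0 to 29 with an array left out. Over all tested probe sets, the differences between replicates correlated at 0.04, -0.12 and 0.09 between groups. This gave no sign of a pairing by replicate number but does not settle if the arrays were paired. The replicate block called no member. The median of the members was -0.20 for BDL_GW4064 over BDL_Vehicle with the array set. With an array left out it ran from -0.29 to -0.0271 there and from -0.0202 to 0.24 for BDL_GW4064 over Sham_Vehicle. Some genes with small differences changed sign. Junb was 0.0361 for BDL_Vehicle over Sham_Vehicle with median centring and 0.0142 for BDL_GW4064 over BDL_Vehicle with quantile normalisation. With the array set, Dusp1 was -0.19 for BDL_Vehicle over Sham_Vehicle, the same value as without BDL_Vehicle replicate 2. For BDL_GW4064 over BDL_Vehicle, Jun (brighter probe set) was then 0.0648, Dusp1 -0.085 and Zfp36 -0.0105, the same values as without BDL_Vehicle replicate 1. For BDL_GW4064 over Sham_Vehicle, Jun (brighter) was 0.30, Atf3 0.21, Dusp1 -0.28 and Zfp36 -0.26. With an array left out, the ranges for BDL_Vehicle over Sham_Vehicle were Jun (dimmer) -0.56 to 0.11, Dusp1 -0.19 to 0.36, Jun (brighter) -0.20 to 0.32, Junb -0.27 to 0.24 and Zfp36 -0.25 to 0.12. With an array left out, the ranges for BDL_GW4064 over BDL_Vehicle were Jun (brighter) -0.38 to 0.16, Dusp1 -0.085 to 0.46, Zfp36 -0.0105 to 0.36, Junb -0.26 to 0.26, Ier2 -0.14 to 0.0381 and Jun (dimmer) -0.61 to 0.0832. With an array left out, the ranges for BDL_GW4064 over Sham_Vehicle were Jun (brighter) -0.32 to 0.22, Atf3 -0.28 to 0.0308, Fosb -0.0532 to 0.43, Junb -0.23 to 0.20, Egr1 -0.0161 to 0.31 and Zfp36 -0.0609 to 0.29. The cause of these changes was not tested. The 2 arrays per group limit the precision, and the Fosb values, all from signals below 37.1, carry no reading of direction.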
